A study of Mus musculus with 3 samples.

Results

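Calcium pumps, IP3 receptors and store-operated entry genes of mouse platelets were followed as 10 genes: the SERCA pump genes Atp2a3 and Atp2a2, the PMCA pump genes Atp2b1 and Atp2b4, the calcium sensor genes Stim1 and Stim2, the channel gene Orai1, and the IP3 receptor genes Itpr1, Itpr2 and Itpr3. They were chosen by symbol, each symbol was matched to its Entrez number, and all 10 were found among the 9822 genes of the tables. The RNA came from purified platelets of male BALB/c mice, 20 weeks old and wild type for Nxf1, with no treatment named in the labels. There were 3 libraries of 1 group, replicates 1 to 3, each labelled as a batch of its own, so animal and batch cannot be told apart. The labels do not say whether each library is 1 mouse. Errors and p-values describe how these samples varied, and part of that may be technical.

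Platelets are cell fragments without a nucleus, and a rise of calcium in their cytosol drives shape change, granule release and integrin activation. Agonists make phospholipase C produce IP3, which opens IP3 receptors in the membrane of the calcium store. Loss of calcium from the store is sensed by STIM proteins, which then open ORAI channels in the plasma membrane, the process called store-operated entry. SERCA pumps return calcium to the store and PMCA pumps expel it from the cell.

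The tables held 25189231 to 26974129 counts per library. All 13 platelet markers passed 1 CPM (counts scaled to a library of 1000000) in every library, and together they took 4.16% to 4.46% of counts. Red cell markers took 4.87% of counts in replicate 1 against 0.522% and 0.680% in replicates 2 and 3. B cell markers summed to 153, 144 and 244 CPM in replicates 1, 2 and 3, and T and NK cell markers to 17.8, 20.4 and 29.0 CPM. Lyz2 aside, monocyte and macrophage markers reached 13.9 to 21.7 CPM, and neutrophil markers 12.5 to 20.8 CPM. RNA present at a few CPM can therefore not be assigned to platelets alone. In bulk RNA, fewer cells of a type and less RNA per cell cannot be told apart.

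One gene stood far above the rest. Atp2a3 gave 93.8%, 94.3% and 93.6% of the counts of the 10 genes in replicates 1, 2 and 3, and the 10 genes together took 0.473%, 0.483% and 0.512% of all counts. Without Atp2a3 the other 9 took 0.0295%, 0.0273% and 0.0329%. Divided by gene length, which lets levels of different genes be compared, the 10 genes fell into 3 tiers. Atp2a3 was at 997 ± 39.1 CPM per kilobase (SD, n = 3), rank 76 of the 9822 genes. Stim1 at 23.6 ± 2.28, Itpr2 at 20.0 ± 1.78 and Orai1 at 12.6 ± 1.36 CPM per kilobase formed the second tier, above the level of 88.2%, 87.0% and 83.0% of genes. The other 6 genes lay between 0.0650 and 1.07 CPM per kilobase, under the median of all genes, 1.49. The median of the 10 genes was 0.979 CPM per kilobase.

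**Figure D1:**
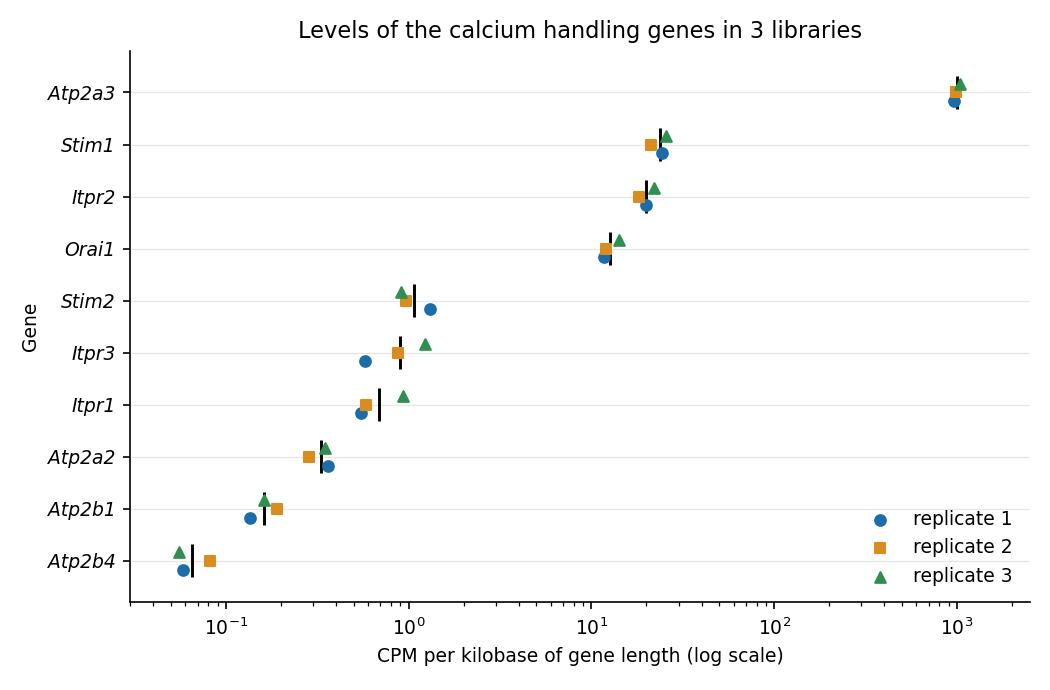
CPM per kilobase of gene length (log axis) of the 10 genes; each symbol is 1 library and the black tick is the mean of 3. Atp2a3 lies near 1000 in all 3 libraries, Stim1, Itpr2 and Orai1 between 11.7 and 25.4, and the other 6 genes at or below 1.31.

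RefSeq promoter entries were found for 8 of the 10 genes. They are shown for the 4 genes of the upper tiers: the 250 bases before an annotated start, 5′ to 3′ on the gene's strand, in GRCm38.p6. Which start the platelet RNA used was not tested. Capitals mark the motif letters searched for: for GATA factors the motif AGATAA, for ETS factors CCGGAAG, for RUNX factors TGTGGT, for AP-1 and NF-E2 TGANTCA, and for SP1 GGGCGG, each on both strands, and adjoining matches can overlap. The Stim1 window lies before 1 of its annotated starts, inside the span of the gene. The 3′ end of the Itpr2 window lies inside the 5′ end of that gene's span, from 146502224 to 146502258.
Atp2a3 (chr11:72960919-72961168, plus strand): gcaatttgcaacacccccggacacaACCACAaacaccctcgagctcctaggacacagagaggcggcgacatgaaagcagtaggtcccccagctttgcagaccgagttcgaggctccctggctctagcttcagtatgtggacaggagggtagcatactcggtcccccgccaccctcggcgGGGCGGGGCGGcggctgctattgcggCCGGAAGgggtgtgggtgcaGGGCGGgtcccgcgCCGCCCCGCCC
Stim1 (chr7:102267569-102267818, plus strand): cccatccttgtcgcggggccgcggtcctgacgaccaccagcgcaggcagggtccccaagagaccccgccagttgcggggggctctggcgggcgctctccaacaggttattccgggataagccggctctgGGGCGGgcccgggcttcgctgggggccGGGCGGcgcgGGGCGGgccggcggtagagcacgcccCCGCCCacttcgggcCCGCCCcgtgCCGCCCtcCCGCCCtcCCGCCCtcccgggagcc
Itpr2 (chr6:146502224-146502473, minus strand): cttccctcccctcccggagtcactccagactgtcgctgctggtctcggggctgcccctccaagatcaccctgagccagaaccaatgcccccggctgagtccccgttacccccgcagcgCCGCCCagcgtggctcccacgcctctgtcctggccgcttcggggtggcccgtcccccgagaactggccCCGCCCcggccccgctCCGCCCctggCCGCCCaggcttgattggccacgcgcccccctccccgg
Orai1 (chr5:123014824-123015073, plus strand): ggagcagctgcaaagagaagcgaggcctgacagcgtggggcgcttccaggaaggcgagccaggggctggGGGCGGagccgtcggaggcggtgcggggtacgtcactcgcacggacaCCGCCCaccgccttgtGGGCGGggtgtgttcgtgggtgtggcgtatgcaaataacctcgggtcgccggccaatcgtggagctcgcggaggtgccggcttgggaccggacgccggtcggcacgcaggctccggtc
The Atp2a3 window held 1 ETS match that starts 45 bases before the start of the gene, 1 RUNX match and 5 SP1 matches. The windows of Stim1, Itpr2 and Orai1 held SP1 matches and none of the other motifs. Over all 9 entries of the 8 genes, 8 held the SP1 letters, against 32.7% of 32851 promoter windows of the same length; the ETS letters were in 1 of 9 (6.91% of all windows), the RUNX letters in 1 (14.05%), the GATA letters in 1, that of Atp2b4 (9.99%), and the AP-1 and NF-E2 letters in 0 (6.75%). The G and C content was 66.8% in the Atp2a3 window, 78.4% in that of Stim1, 74.4% in that of Itpr2 and 70.8% in that of Orai1, against a median of 52.4%. The SP1 letters are all G or C, and the share of 32.7% was not matched for this content. Atp2b1 had 2 entries, and each is among the 8 with SP1 letters. A match of letters is a description and shows no binding.

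Among the store pumps the RNA was almost wholly that of Atp2a3, which encodes SERCA3, the pump isoform known from blood cells, platelets included. Atp2a3 (Entrez gene 53313, chromosome 11, 72961169 to 72993043 in GRCm38) rested on 119616, 114713 and 125037 counts in replicates 1, 2 and 3, or 4434, 4554 and 4789 CPM. The 3 values lay within 1.08 times of each other. Atp2a2, which encodes the widely expressed SERCA2 pump (chromosome 5, 122453513 to 122502225), was at 2.08, 1.63 and 1.99 CPM, from 56, 41 and 52 counts. Within each library Atp2a3 exceeded Atp2a2 by 2655, 3478 and 2989 times per kilobase, a log2 ratio of 11.56 ± 0.20 (SD, n = 3). Atp2a2 thus made up 0.0333% ± 0.00445 of the pair. The third gene of the family, Atp2a1, which encodes the pump of fast skeletal muscle, was at 7.56, 6.63 and 7.81 CPM and per kilobase took 0.213% ± 0.0171 of the 3 genes, more than Atp2a2. Its exons overlap those of Rabep2 on the opposite strand over 763 bases, 21.9% of their length, and whether the counting used strand is not given in the sources used here, so its level is uncertain.

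The pumps of the plasma membrane were at the lower edge of the tables. Atp2b1, which encodes PMCA1 (chromosome 10, 98914630 to 99026143), was at 0.964, 1.35 and 1.15 CPM, from 26, 34 and 30 counts. Atp2b4, which encodes PMCA4 (chromosome 1, 133702674 to 133801059), was at 0.482, 0.675 and 0.460 CPM, from 13, 17 and 12 counts. The counts of Atp2b1 and Atp2b4 did not overlap, and per kilobase Atp2b1 was 2.33, 2.33 and 2.91 times Atp2b4. Exact Poisson 95% intervals, which cover counting error only, ran from 0.630 to 1.41 CPM for Atp2b1 in replicate 1 and from 0.257 to 0.824 CPM for Atp2b4. Atp2b4 ranked 9798 of 9822 genes per kilobase. Both proteins are also known from red cells. Red cell markers were highest in replicate 1 and both RNAs were highest in replicate 2, and the part of red cells in these low levels was not tested. The deposited tables leave out genes of lower count by an unstated rule, and the least abundant gene reached 0.238 CPM in its best library. In all, 8 of the 10 genes passed 1 CPM in every library, against 77.7% of all genes. The 2 that did not were these PMCA genes. With the TMM scaling described below Atp2b1 passed too, at 1.01, 1.41 and 1.05 CPM in replicates 1, 2 and 3.

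Of the calcium sensors, Stim1 was the main RNA. Stim1 (chromosome 7, 102261514 to 102437319), the main sensor for store-operated entry in platelets, was at 88.1, 76.1 and 91.8 CPM. Stim2, a sensor known to respond to smaller losses of store calcium (chromosome 5, 53998523 to 54121057), was at 6.45, 4.76 and 4.48 CPM, from 174, 120 and 117 counts. Their ranges lay far apart. Stim1 was 18.6, 21.7 and 27.9 times Stim2 per kilobase, a log2 ratio of 4.49 ± 0.30 (SD, n = 3), and it made up 95.7% ± 0.825 of the pair.

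Orai1, which forms the pore of store-operated channels, was the highest of the 3 Orai genes per kilobase. Orai1 (chromosome 5, 123015074 to 123030452) was at 21.8, 22.4 and 26.5 CPM, from 588, 565 and 692 counts. By reads it lay close to Orai2, at 23.2, 24.5 and 29.6 CPM, and above Orai3, at 5.005, 4.88 and 6.78 CPM. Orai2 gave more reads than Orai1 in each library, but it is a longer gene. Per kilobase Orai1 made up 57.1% ± 0.912, Orai2 30.3% ± 0.387 and Orai3 12.5% ± 0.850 of the 3 genes, and the shares of each varied little between libraries. Stim1 exceeded Orai1 by 2.09, 1.76 and 1.796 times per kilobase, a log2 ratio of 0.91 ± 0.14 (SD, n = 3).

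Of the IP3 receptors, the release channels of the store, Itpr2 was the dominant RNA. Itpr2 (chromosome 6, 146108299 to 146502258) was at 165, 152 and 182 CPM, from 4448, 3841 and 4754 counts. Itpr3 (chromosome 17, 27057002 to 27122223) was at 5.19, 7.86 and 11.0 CPM, from 140, 198 and 288 counts. Itpr1 (chromosome 6, 108213083 to 108551116) was at 5.45, 5.80 and 9.23 CPM, from 147, 146 and 241 counts. Every library of Itpr2 was far above every library of the other pair, and Itpr1 and Itpr3 overlapped. Itpr2 made up 94.6%, 92.6% and 91.0% of the 3 genes per kilobase in replicates 1, 2 and 3, Itpr3 4.10% ± 1.21 and Itpr1 3.17% ± 0.650 (SD, n = 3). The log2 ratio was 4.89 ± 0.31 for Itpr2 over Itpr1, 4.55 ± 0.49 for Itpr2 over Itpr3 and 0.34 ± 0.26 for Itpr3 over Itpr1. Across the families of the calcium store, Atp2a3 exceeded Itpr2 by 48.6, 54.0 and 47.6 times per kilobase.

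**Figure D2:**
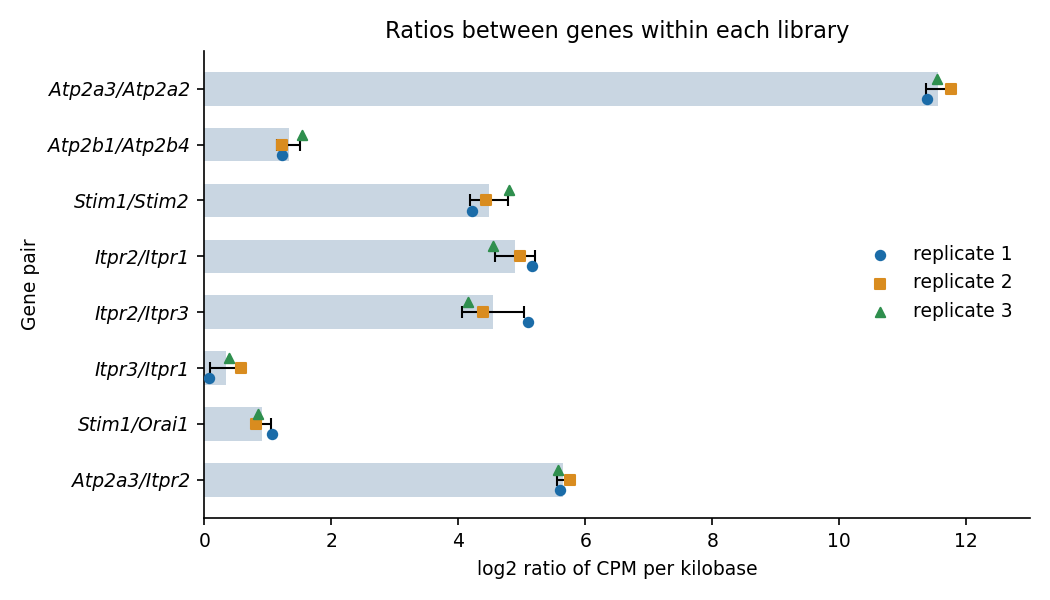
log2 ratio of CPM per kilobase between 2 genes of the same library; bars are means, error bars SD, and symbols the 3 libraries. The ratio of Atp2a3 to Atp2a2 stands at 11.56, those of Stim1 to Stim2 and of Itpr2 to Itpr1 and Itpr3 between 4.49 and 4.89, and that of Itpr3 to Itpr1 at 0.34.

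The order of levels per kilobase was Atp2a3, Stim1, Itpr2, Orai1, Stim2, Itpr3, Itpr1, Atp2a2, Atp2b1 and Atp2b4. Of the 9 neighbouring pairs in this order, 6 had ranges over the 3 libraries that did not overlap. Stim1 and Itpr2 overlapped in range, although Stim1 was the higher within each library (mean ratio 1.18). By reads alone Itpr2 stood above Stim1, and Stim2 stood below both Itpr3 and Itpr1. Stim2 and Itpr3 overlapped and changed order between libraries, with Stim2 higher in 2 of 3. Without replicate 1, Itpr3 stood above Stim2. Itpr3 and Itpr1 overlapped too. The ratios are given with their SD and no test; the smallest p that an exact sign-flip test (two-sided) allows with 3 libraries is 0.25.

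Lengths and overlaps bear on these levels in a few places. The deposited lengths of Itpr2 (8331 bases) and Atp2b4 (8292 bases) are shorter than the longest GENCODE M21 transcripts (11679 and 11725 bases), and that of Stim1 is 3609 against 4362 bases. With those longer lengths the order of the 10 genes was the same. Atp2a3, Atp2b1, Stim1, Stim2 and Itpr2 had no exon overlap with another annotated gene, and in the other 5 genes the largest overlap was 2.58% of exon bases, between Itpr3 and its antisense gene Itpr3os. Counts are per gene, so the splice forms of the SERCA and PMCA genes cannot be told apart.

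Between libraries, none of the 10 genes stood out by the test of spread. The test asks whether a gene varied more than others of its abundance (edgeR quasi-likelihood dispersion over its trend, TMM scaling, Benjamini-Hochberg adjustment), and it covered the 8289 genes whose mean reached 1 CPM, 9 of the 10 among them; Atp2b4 was below that level. It called 0 of the 9, against 0.229% of all genes tested (19 genes). By the unadjusted value 1 of the 9 lay under 0.05 (4.29% of all genes tested did), that of Itpr3 at 0.0380, which edgeR's adjustment over all genes took to an adjusted p = 0.982. DESeq2's rule for dispersion outliers gave 0 of the 9, against 0.591% of all genes tested. The other 8 had adjusted p values of 0.982 to 0.994. Failing this test does not show that levels were equal. On simulated data it called 0 of 50 genes changed 2-fold in 1 library. The widest range among the 10 genes after TMM scaling was that of Itpr3, 1.85 times from lowest to highest library. Differences of that size could hardly have been called.

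The size of the spread nevertheless differed from gene to gene. After TMM scaling, which allows for the few RNAs that take most counts, the coefficient of variation was 2.94% for Orai1, 4.08% for Itpr2, 4.26% for Atp2a3 and 7.67% for Stim1, below the median of 12.4% over the 8289 genes. It was 22.0% for Itpr1, 25.7% for Stim2 and 29.5% for Itpr3, where counting alone gives about 7.495%, 8.54% and 6.92%. For Atp2a2 (13.03%), Atp2b1 (19.0%) and Atp2b4 (26.9%) the spread was close to that of counting, 14.2%, 18.3% and 26.7%.

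Itpr3 and Itpr1 were highest in replicate 3, and Stim2 was highest in replicate 1. The exact Poisson 95% intervals of Itpr3 were 4.37 to 6.12, 6.80 to 9.03 and 9.79 to 12.4 CPM in replicates 1, 2 and 3 and did not overlap. For Itpr1 the interval of replicate 3, 8.10 to 10.5 CPM, lay above those of replicates 1 (4.604 to 6.41) and 2 (4.89 to 6.82). Replicate 3 over the mean of the other 2 libraries gave a log2 difference of 0.76 for Itpr3 and 0.71 for Itpr1 on the CPM scale, and 0.56 and 0.52 after TMM scaling. The median over 8289 genes was 0.23 on the CPM scale and 0.04 after TMM scaling. The 5th and 95th percentiles were -0.19 and 0.96 on the CPM scale, and -0.38 and 0.76 after TMM scaling. Itpr3 and Itpr1 lay between these percentiles on both scales. Stim2 went the other way, at -0.32 (CPM) and -0.52 (TMM), below the 5th percentile on both scales. The 9 red cell markers in the tables were all highest in replicate 1, as Stim2 was, and their sum was at -1.99 (CPM) and -2.18 (TMM). Their part in the level of Stim2 was not tested.

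B cell markers and T and NK cell markers were also higher in replicate 3. By CPM 69.1% of the 8289 genes were highest in that library, and 43.9% after TMM scaling. All 7 B cell markers were highest there on both scales, with a log2 difference of their sum of 0.72 (CPM) and 0.52 (TMM). Among T and NK cell markers 6 of 7 were highest there on both scales, at 0.60 and 0.41 for the sum. The sum of the 4 neutrophil markers in the tables was at 0.47 (CPM) and 0.28 (TMM). The sum of monocyte and macrophage markers was at 0.38 and 0.19 without Lyz2, and at -0.04 and -0.23 with it. After TMM scaling 1 of 4 neutrophil markers and 3 of 7 monocyte and macrophage markers were highest in replicate 3. From replicate 1 to replicate 2 Itpr3 went from 5.19 to 7.86 CPM and the neutrophil sum from 12.5 to 17.4 CPM. The T and NK cell sum went from 17.8 to 20.4 CPM and the B cell sum from 153 to 144 CPM. The monocyte and macrophage sum without Lyz2 went from 19.4 to 13.9 CPM. Of the neutrophil markers S100a8 (2.19 to 4.53 CPM) and S100a9 (5.34 to 9.25 CPM) rose, and Retnlg (3.08 to 2.46 CPM) and Mmp8 (1.89 to 1.15 CPM) fell. Platelet markers were at 0.07 and -0.13, and Itpr2 at 0.20 and 0.00. The part of these cells in the levels of Itpr1 and Itpr3 was not tested.

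**Figure D3:**
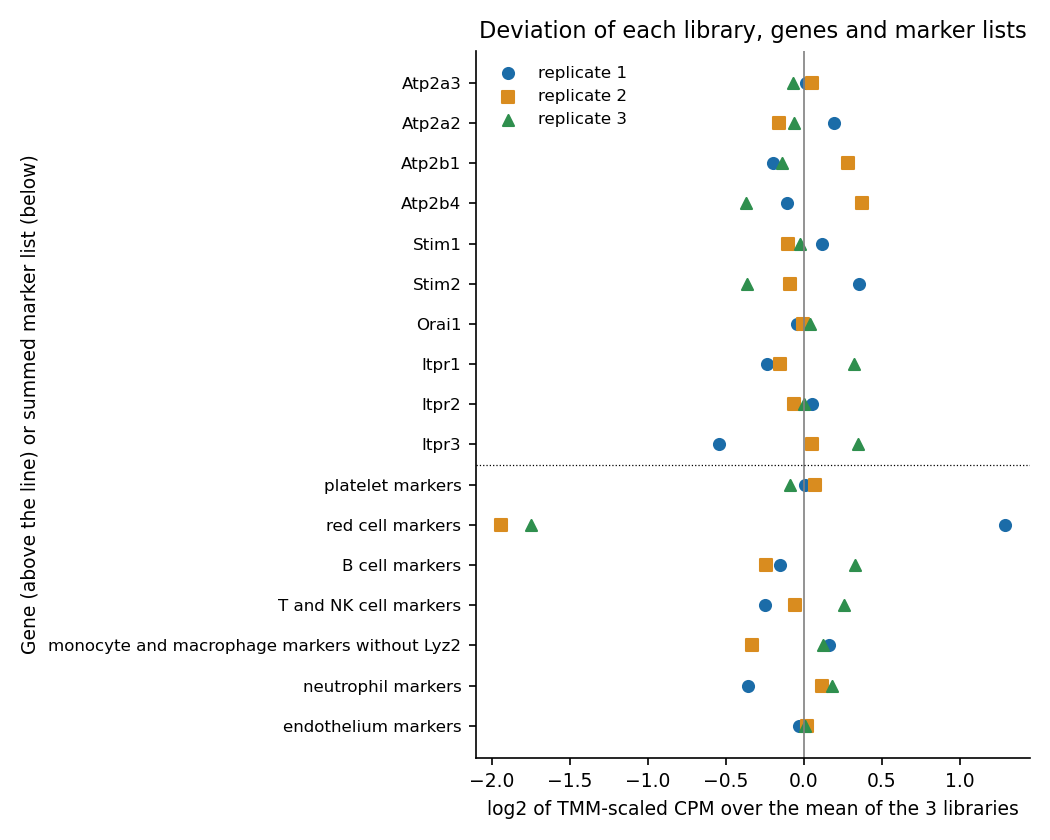
log2 of TMM-scaled CPM over the mean of 3 libraries, for the 10 genes (above the dotted line) and for summed marker lists of 7 cell types (below); each symbol is 1 library. Replicate 3 lies to the right for Itpr1 (0.33), Itpr3 (0.35) and the B cell markers (0.33), whereas Atp2a3, Itpr2 and Orai1 stay within 0.07 of their means.

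The rest of the calcium pathway was read from 11 groups of 117 symbols, of which 75 had a row in the tables. In every library 66 of them reached 1 CPM, again beside 77.7% of all genes. These detected genes had already passed the filter of the tables. Counts by group are of the genes with a row. The median of the 75 genes was 4.89 CPM per kilobase. None of the 75 was above Atp2a3, and 22 were above Itpr2. By deposited length, nearest to Atp2a3 was Rasgrp2, the calcium-sensing exchange factor that activates Rap1, at 931 ± 11.6 CPM per kilobase (SD, n = 3). That length is 2193 bases against 8815 for the longest GENCODE M21 transcript of Rasgrp2, so its level per kilobase is uncertain. All 14 genes of calcium-sensing effectors passed 1 CPM, with Capns1, the small subunit of calpain, at 176 ± 15.98 CPM per kilobase.

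Upstream of the IP3 receptors, 6 of 10 phospholipase C genes had a row and all 6 passed. Plcg2, which acts below collagen and podoplanin receptors, was at 10.8 ± 2.55 and Plcb1, a form driven by G proteins, at 6.71 ± 0.114 CPM per kilobase, both below Itpr2. Plcg2 was at 41.0, 39.6 and 59.2 CPM, with replicate 3 the highest, as for Itpr1 and for 69.1% of the 8289 genes by CPM. Of the genes that break down or convert IP3, 6 of 7 passed, led by the IP3 kinase gene Itpkb (20.8 ± 3.55) and the IP3 phosphatase gene Inpp5a (20.5 ± 0.654 CPM per kilobase), near the 20.0 of Itpr2 itself. Among binding partners of the receptors 5 of 8 passed, and Irag1, the cGMP kinase substrate that restrains release from the store, was at 98.7 ± 5.36 CPM per kilobase, far above the next, Irag2 (4.27 ± 1.39).

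Other routes across the plasma membrane were uneven. P2rx1, which ATP opens, stood at 253 ± 10.7 CPM per kilobase, above Orai1, Stim1 and Itpr2, while Trpm7, a channel with a kinase domain, was at 0.952 ± 0.197; 3 of 4 such genes passed, of 10 listed. Among other store-operated entry genes 5 of 6 passed, with Saraf, an inhibitor of STIM1, at 40.4 ± 0.542 and the cation channel Trpc6 at 17.7 ± 1.26 CPM per kilobase. Of the exchangers and other pumps 14 were listed, and all 4 with a row passed, Atp2a1 among them: Slc24a3, a potassium-dependent sodium and calcium exchanger, was at 31.1 ± 1.87 and Atp2c1, the calcium and manganese pump of the Golgi, at 26.6 ± 1.91 CPM per kilobase. Both exceeded Atp2b1 and Atp2b4 in every library. Exons of Atp2c1 overlap those of Aste1 on the opposite strand over 1837 bases, 18.9% of their length, so the level of Atp2c1 is uncertain. The genes Slc8a1, Slc8a2 and Slc8a3 were not among the rows of the tables used here.

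Within the cell, mitochondrial uptake genes were the group with the highest median, 33.1 CPM per kilobase, and all 8 with a row passed. Smdt1, a small subunit of the uniporter, was at 217 ± 9.14 CPM per kilobase. Mcu, of the same group, was at 2.38 ± 0.0989 CPM per kilobase. Smdt1 shares 16.6% of its exon bases with a neighbour on the same strand, so its level is uncertain. Of other channels of internal membranes 11 were listed and all 4 with a row passed, with Tmbim6, a protein of the store membrane, at 183 ± 3.05 and Tpcn1, an endolysosomal channel, at 34.5 ± 2.35. Ryanodine receptor genes were not among the rows used here. Of the genes listed as calcium-binding proteins of the store lumen 7 of 9 passed. The highest on that list were Sdf4 at 20.2 ± 1.09 and calreticulin (Calr) at 13.9 ± 0.428. Of the genes listed as regulators of SERCA pumps 4 of 5 passed; Rap1b, a small GTPase, was at 383 ± 22.8 and Hax1 at 4.01 ± 0.446 CPM per kilobase, and phospholamban (Pln) and sarcolipin (Sln) were not among the rows used here.

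**Figure D4:**
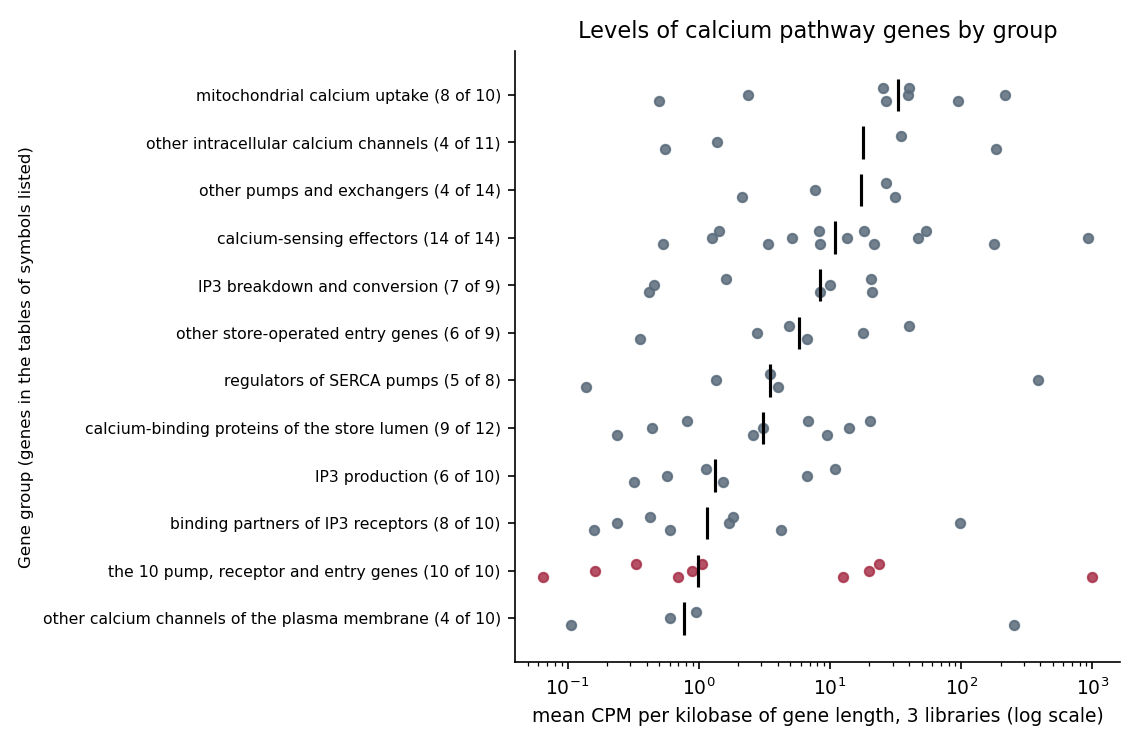
Mean CPM per kilobase (log axis) of each gene found in the tables, by pathway group; dots are genes, ticks are medians, and the labels give how many listed symbols were found. The 10 genes described here, in red, run from 0.0650 to 997 with a median of 0.979, and mitochondrial uptake has the highest median, 33.1.

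Outside all lists, the 5 genes whose level was nearest to that of Atp2a3 in all 3 libraries were Cfl1 (1002 ± 45.8 CPM per kilobase), Ptpn18 (1020 ± 57.9), Alox12 (915 ± 29.1), Mir682 (912 ± 55.7) and H4c9 (907 ± 30.4). The measure was the largest difference in log2 CPM per kilobase over the 3 libraries, which was 0.08 for Cfl1 and 0.18 for H4c9. With 3 libraries of 1 group it compares levels and not patterns. Mir682 is annotated as a miRNA gene of 96 bases, and reads of a longer RNA over that place cannot be told from it.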

How the data were processed

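Libraries were made with the TruSeq RNA version 2 kit, per the labels' protocols. The authors deposited 1 table per library, which holds raw counts and a length for each Entrez gene. The submitters' processing notes name build mm10 and, in no stated order, featureCounts, Subread, edgeR 3.11.5 and CASAVA 1.8.2. For their settings, the annotation, strand and reads with several places, the sources used here give nothing. Of 9822 genes, 9636 had a symbol in the RefSeq table for GRCm38.p6.

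CPM used the plain total of counts; CPM per kilobase divided it by the deposited length. The test of spread used edgeR 4.0.16 (limma 3.58.1, R 4.3.3), an intercept and TMM scaling (factors 0.954, 0.958 and 1.09). On simulated data with 8289 genes it found 0 of 50 genes changed 2-fold in 1 library, 30 of 50 changed 4-fold and 50 of 50 changed 8-fold, and it made 0 false calls. DESeq2 1.42.0, Python 3.11.15, pandas 2.3.3, NumPy 2.4.6, SciPy 1.17.1 and matplotlib 3.10.9 were also used. The 10 genes, the gene lists (188 symbols, 2 matched by an older symbol, 1 with no identifier) and the tests were chosen with earlier results of these data known. Named besides the 10 genes were the 2 highest per kilobase of each pathway group and the 5 genes nearest in level to Atp2a3. Atp2a1, Orai2, Orai3 and Mcu were added after their values were seen. An item that the rule names is not reported here. Alternatives covered scaling, filters, length, prior count, prior, tool and each replicate left out.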

Additional observations from a re-analysis of the deposited data

How the results depend on the processing

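The number of the 10 genes at 1 CPM in all libraries was 8. It was 9 with TMM scaling, with DESeq2 size factors, with the 10 highest genes left out of the total, and without replicate 1. The separated neighbours in the order were 6, and up to 8 under the alternatives. The pathway genes detected were 66 of 75, against 71 at a minimum of 0.5 CPM, 51 at 5 CPM and 54 at 1 CPM per kilobase. Under all alternatives 0 of the genes described were called for spread. Leaving out the 10 highest genes from the total raised the level of each of the 10 genes, to 8091 CPM for Atp2a3. The genes called for spread over the whole tables were 11 at a mean of 5 CPM, 11 with plain totals, 0 with a robust prior (396 at an unadjusted p under 0.05), 49 by DESeq2, and 1 without replicate 1, up to 32 without replicate 3 and 29 without replicate 2. The cause was not tested. Without division by length the log2 ratios were 11.25 (Atp2a3 to Atp2a2), 1.11 (Atp2b1 to Atp2b4), 4.04 (Stim1 to Stim2), 1.86 (Stim1 to Orai1) and 4.79 (Atp2a3 to Itpr2). With GENCODE transcript lengths, chosen after seeing the data, they were 1.82 (Atp2b1 to Atp2b4), 4.40 (Itpr2 to Itpr1), 0.64 (Stim1 to Orai1) and 6.13 (Atp2a3 to Itpr2). These follow from the lengths used. Adjusted p values for Itpr3 ran from 0.737 to 0.992. No paired analysis was possible because there was 1 group. Depth limits Atp2b1 and Atp2b4, which rest on 12 to 34 counts per library.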
